A study of Mus musculus with 868 samples.

Results

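The 43 genes described here make the machinery that copies DNA and divides cells. They were taken by gene symbol from the 24421 symbols counted in every tissue: 26 act in mitosis and 17 in DNA replication. All 43 symbols were found in all 24 tissue tables. The mice were of the C57BL/6N strain, and each tissue was profiled after 15 drugs and 3 control conditions, with 2 libraries per group; brain with asenapine and jejunum with sofosbuvir had 4.

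The treatments were compared within 3 sets of libraries that resemble each other in their expression values; the sets are not named in the labels. Set A held APAP (acetaminophen, 2 h), sofosbuvir, FivePercentSucrose (here Sucrose) and mice labelled WT(No treated) (here Untreated). APAP and sofosbuvir were set against the mean of Sucrose and Untreated, and Sucrose against Untreated. Set B held risedronate, alendronate, asenapine, lurasidone and olanzapine and no control, so each drug was set against the mean of the other 4. Set C held cisplatin, aripiprazole, clozapine, Dox (2 mg per mL), EMPA (by mouth for 2 weeks), lenalidomide, Repatha and teriparatide, each set against the vehicle mixture 0.5percentCMC0.25percentTween80 (here CMCTween). No other dose, time, route or vehicle, and no age or sex, is given in the sources used here. No gene was altered in any group. The labels number the samples of a group but do not say that they came from separate animals, so p-values measure the spread between these samples.

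A dividing cell first builds a stock of licensing proteins, loads the MCM helicase onto DNA at the origins, and then opens the forks under the push of cyclin E and its kinase. Later, cyclins A and B switch on the kinase CDK1, the spindle captures the centromeres, and the anaphase-promoting complex destroys the cyclins so that the cell can split. Resting cells keep most of these genes silent, so that in a tissue such as marrow, thymus or the intestinal crypts their transcripts come from the fraction of cells in cycle. In whole tissue, fewer dividing cells and less RNA per dividing cell cannot be told apart.

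Values are CPM, a gene's counts scaled to 1000000 counts of its library, from a method that reads the 3′ end of each transcript. Library totals ran over 451154 to 12811780 counts (median 877592), with 451154 to 3685250 in the 820 libraries of all other groups and 2875950 to 12811780 in the 48 Untreated libraries. A CPM value of a gene with few counts is thus less certain in a treated library than in an Untreated one. Of 48 marker genes for the 24 tissues, 47 were highest in the tissue they mark in Untreated mice and none was at 0. The exception was the smooth muscle gene Myh11, which averaged 456.3 CPM in aorta and 822.5 CPM in stomach. The genes lie on 17 chromosomes, with 8 of them on chromosome 2.

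The control regions upstream of these genes carry 2 kinds of short element, shown here because the mitosis and replication genes differ in them. RefSeq promoters on GRCm38.p6 (250 bases before to 50 after the start) matched 36 of the 43 genes. The letters TTTGAA (cell cycle homology region, CHR, the element through which mitosis genes are held silent in resting cells) were found on either strand in 16 of 22 mitosis promoters (72.7%), in 1 of 14 replication promoters (7.14%, Mcm2) and in 20.2% of the promoters of 27025 genes. CCAAT, read by the factor NF-Y, stood in 20 of 22 mitosis promoters (90.9%), 8 of 14 replication promoters (57.1%) and 41.1% of all. CHR and CCAAT together were in 16 of 22 mitosis promoters and 8.97% of all. E2F letters (TTTCGCGC, TTTGGCGC, TTTCCCGC or TTTGCCGC, of which 2 can overlap on opposite strands) were in 1 of 22 mitosis promoters (4.55%, Cdk1), in 6 of 14 replication promoters (42.9%; Cdc6, Cdt1, Mcm3, Mcm5, Mcm6 and Mcm7) and in 2.60% of all. A match is a description of these letters and not of binding. The 150 bases before the start of a pair of mitosis genes and a pair of replication genes follow, 5′ to 3′ on the strand of the gene, with CHR, CCAAT and E2F letters of either strand in capitals. Cdk1 (chr10:69352913-69353062, minus strand) and Cdc20 (chr4:118437344-118437493, minus strand) carry CHR and CCAAT. Mcm6 (chr1:128359706-128359855, minus strand) and Cdc6 (chr11:98908001-98908150, plus strand) carry E2F letters.
Cdk1: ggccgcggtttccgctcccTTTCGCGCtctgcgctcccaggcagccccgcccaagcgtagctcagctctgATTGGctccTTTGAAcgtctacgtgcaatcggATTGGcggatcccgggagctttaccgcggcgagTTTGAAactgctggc
Cdc20: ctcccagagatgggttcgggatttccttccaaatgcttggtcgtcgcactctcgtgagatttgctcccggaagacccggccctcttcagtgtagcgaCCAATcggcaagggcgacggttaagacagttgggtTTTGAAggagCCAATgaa
Mcm6: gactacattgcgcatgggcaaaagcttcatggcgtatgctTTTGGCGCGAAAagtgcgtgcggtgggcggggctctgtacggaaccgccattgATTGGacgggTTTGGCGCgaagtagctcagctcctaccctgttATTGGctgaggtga
Cdc6: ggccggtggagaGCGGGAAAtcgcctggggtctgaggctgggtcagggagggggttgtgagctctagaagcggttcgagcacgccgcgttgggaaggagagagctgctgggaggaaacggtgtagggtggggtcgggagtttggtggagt

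In Untreated mice the summed level of the 26 mitosis genes spanned a 218-fold range over the 24 tissues. It was 6387.9 and 6757.4 CPM in the 2 libraries of bone marrow, 6127.7 and 6515.0 CPM in thymus, 3744.1 and 3751.9 CPM in skull, and 27.1 and 33.3 CPM in pancreas, the lowest tissue. Bone marrow and thymus overlapped, and skull stood below both without overlap. Testis (2542.9 and 2640.0 CPM), jejunum (2307.7 and 2427.5 CPM), ileum (2170.3 and 2403.7 CPM) and colon (1382.1 and 1459.9 CPM) came next, with jejunum and ileum overlapping. Spleen and stomach overlapped at means of 811.7 and 808.2 CPM, skin followed at 372.5 CPM, and lung opened the run of quiet tissues at 170.8 CPM, most of which overlapped their neighbours in the order.

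The 17 replication genes gave a partly different order. Thymus led with 2465.3 and 2579.3 CPM, clear of bone marrow with 2020.7 and 2199.4 CPM, and the range down to pancreas (21.7 and 22.6 CPM) was 114-fold. Spleen stood above colon and testis on this sum (means of 653.7, 447.4 and 377.5 CPM), although it stood far below both on the mitosis sum. The mitosis sum was 6.87 times the replication sum in testis, 3.11 times in bone marrow, 3.15 times in ileum, 1.24 times in spleen and 0.606 times in liver.

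**Figure D1:**
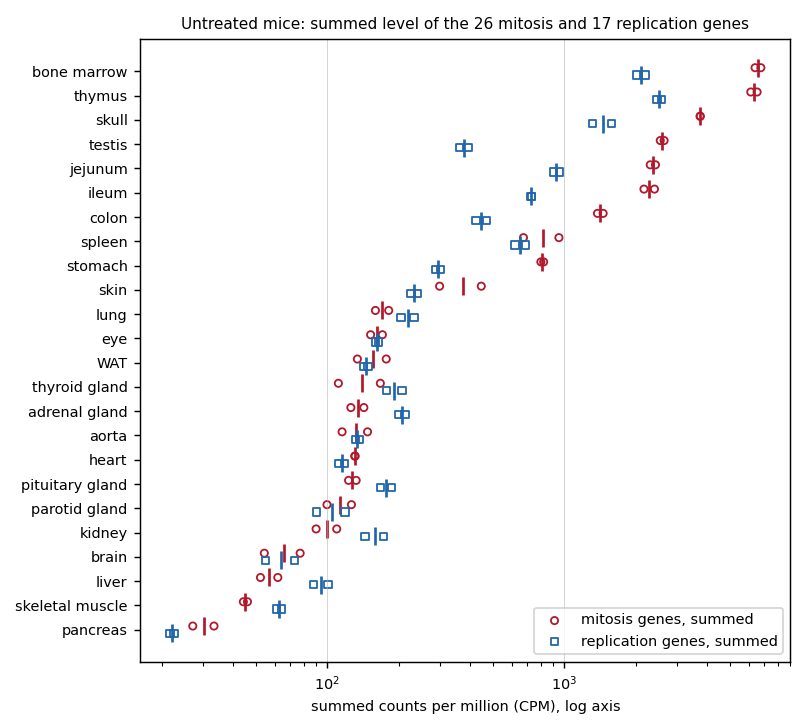
Summed CPM (log axis) of the 26 mitosis genes (red circles) and the 17 replication genes (blue squares) in Untreated mice, 1 symbol per library with the mean as a line, tissues from highest to lowest mitosis sum. Bone marrow and thymus stand at the top of both sums, and testis stands apart in holding 2591.4 CPM of mitosis against 377.5 CPM of replication transcripts.

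Each tissue was then tested against the mean of the other 23 with edgeR's quasi-likelihood test. All 43 genes were higher in bone marrow, where 27.9% of all genes tested were higher, as they were in thymus (30.7% of all genes) and ileum (25.9%). Skull (26%) and jejunum (27.2%) had 42 higher, colon 37 (25.6%), spleen 35 (27.9%), testis 34 (40.2%) and stomach 32 (27.0%). Skin divided, with 4 genes higher and 8 lower, where 27.5% of all genes were higher and 15.1% lower; without Untreated replicate 2 the counts were 7 and 3, and 2 were higher without Untreated replicate 4. In the other 14 tissues, 15 of 602 gene and tissue tests were higher and 383 lower, against 25.3% and 17.3% of all tests. For 9 genes with no count in at least 1 tissue (Ccnb1, Nek2, Cdkn3, Aurkb, Bub1b, Cdc20, Cdc6, Gins2 and Tk1) low levels were rarely called, and their fitted changes depend on the prior count, so none is given. The median log2 difference of the 43 genes was 4.18 in bone marrow, 4.06 in thymus and 3.26 in skull, and that of all genes tested was -0.32, -0.12 and -0.05 in these tissues.

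By role, the 8 genes of the centromere and its checkpoint summed to 1771.8 and 1874.8 CPM in bone marrow and to 2145.6 and 2271.4 CPM in thymus, without overlap. They include Birc5, Cdca8 and Aurkb of the chromosomal passenger complex, the motor Cenpe and the checkpoint kinases Bub1 and Bub1b. The 2 genes of the anaphase-promoting complex, its activator Cdc20 and its ubiquitin-conjugating enzyme Ube2c, went the other way with 941.2 and 978.2 CPM in bone marrow and 625.5 and 708.7 CPM in thymus. Ube2c alone averaged 900.3 CPM in bone marrow and 577.3 CPM in thymus. Mki67, whose product coats mitotic chromosomes, averaged 618.5 CPM in bone marrow, 324.3 CPM in skull and 308.7 CPM in thymus, and 0.367 CPM in pancreas. Top2a, the topoisomerase that untangles chromosomes, was close in bone marrow (899.2 CPM) and thymus (889.4 CPM). Cdk1, the kinase of mitotic entry, averaged 507.8 CPM in thymus and 440.1 CPM in bone marrow, and Ccnb1, its cyclin, 93.4 and 78.8 CPM in the same tissues.

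Among the replication genes the 5 that supply nucleotides summed to 864.1 and 887.9 CPM in thymus and to 582.7 and 616.8 CPM in bone marrow. Most of that gap was in Dut, the enzyme that keeps uracil out of DNA, with 417.9 CPM in thymus and 144.9 CPM in bone marrow. Rrm2, the regulated subunit of ribonucleotide reductase, averaged 179.7 CPM in bone marrow and 166.5 CPM in thymus, and Tyms, thymidylate synthase, 132.9 CPM in thymus and 75.4 CPM in bone marrow. The 8 licensing genes, which include the helicase subunits Mcm2 to Mcm7 and the loaders Cdc6 and Cdt1, summed to 1373.7 and 1468.0 CPM in thymus and to 1227.0 and 1349.5 CPM in bone marrow, close to each other but without overlap. Mcm6 averaged 319.5 CPM in thymus and 221.6 CPM in bone marrow, whereas Mcm7 averaged 170.2 and 199.6 CPM in these tissues. Pcna, the sliding clamp of the fork, averaged 158.5 CPM in thymus, 108.9 CPM in bone marrow and 63.7 CPM in skull. Of the 43 genes, 21 were highest in thymus, 17 in bone marrow and 5 in testis.

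**Figure D2:**
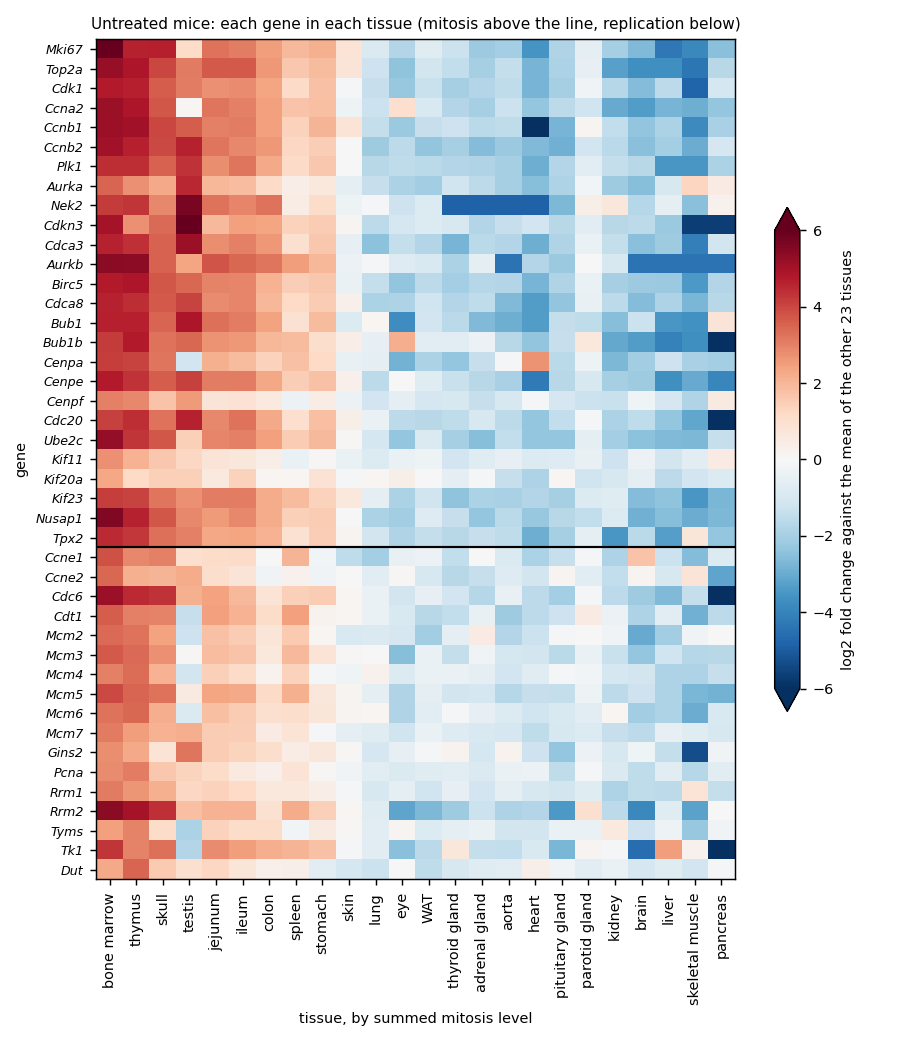
Log2 difference of each gene in each Untreated tissue against the mean of the other 23 tissues (colour, limited at 6 in both directions), mitosis genes above the line and replication genes below it, with tissues in the order of their mitosis sum. The 9 tissues at the left are red in most rows, testis holds blue cells among the replication genes, and single red cells such as Cenpa in heart and Tk1 in liver stand among the quiet tissues.

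Testis, where male germ cells multiply and then pass through meiosis, had a different makeup. The 5 genes highest there were Aurka (184.5 CPM), the kinase of the spindle poles, the related centrosome kinase Nek2 (26 CPM), the phosphatase Cdkn3 (87.5 CPM), Cdca3 (210.2 CPM), an adaptor in the destruction of the CDK1 inhibitor Wee1, and the fork gene Gins2 (6.70 CPM). By contrast 6 genes were lower than the mean of the other tissues. Cenpa, the histone of the centromere, had 4.46 and 5.28 CPM in testis (log2 difference -1.16 ± 0.29 SE, edgeR adjusted p = 0.000377). Cdt1 differed by -1.38, Mcm2 by -1.25, Mcm4 by -1.10, Mcm6 by -0.86 and Tyms by -1.89 on the log2 scale. Each of these 6 calls held without either testis library, and 28.5% of all genes were lower in testis.

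Single genes also stood high in tissues that were otherwise quiet. Cenpa had 57.7 and 53.1 CPM in heart, log2 2.68 ± 0.14 above the mean of the other tissues (edgeR adjusted p = 1.01e-20), in a tissue where 30 of the 43 genes were lower. Tk1, the thymidine salvage kinase, had 15.1 and 16.1 CPM in liver, against a median of 3.67 CPM over the 24 tissues. Aurka had 13.6 and 11.8 CPM in skeletal muscle (log2 1.30 ± 0.15, edgeR adjusted p = 9.04e-10) and Rrm1, the large subunit of ribonucleotide reductase, 16.6 and 15.7 CPM (log2 0.84 ± 0.13, edgeR adjusted p = 4.41e-07). These genes were picked out after their values were seen.

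The genes most like the mitosis group over the 24 Untreated tissues were ranked by Pearson's r of log2(CPM + 1) with the mean of the 26 mitosis genes. The highest that are not among the 43 were Casc5 (0.990), Prc1 (0.988), Aspm, Ncapg and Tacc3 (0.987 each), Hmmr (0.986), Cdca5 and Trip13 (0.985 each), Ska1 (0.983) and Ckap2l (0.982). Of 16459 genes with a mean of at least 1 CPM, 59 genes outside the 43 reached 0.95. The tissues share the mouse strain and library method, and these values are a description. Within the 43, Tyms (0.776), Tk1 (0.783) and Mcm2 (0.833) followed the mitosis mean least among the replication genes, and Cenpa (0.809 with itself left out of the mean) least among the mitosis genes.

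Cisplatin, a platinum drug that crosslinks DNA, lowered 42 of the 42 genes tested in thymus, where 21.1% of all genes fell. The mitosis sum was 370.4 and 417.6 CPM in cisplatin thymuses, against 5057.9 and 5215.5 CPM in CMCTween thymuses, a ratio of 0.0767. The replication sum was 420.4 and 483.0 CPM against 2105.2 and 2192.0 CPM, a ratio of 0.210. In no gene did the cisplatin and CMCTween libraries overlap. Mki67 had 23.4 and 43 CPM in cisplatin and 617.5 and 605.9 CPM in CMCTween thymuses (log2 fold change -4.27 ± 0.20 SE, edgeR adjusted p = 7.62e-24). Top2a fell to 89.0 and 86.1 CPM, against 1429.6 and 1334.8 CPM (log2 -4.09 ± 0.15), and Cdk1 to 8.90 and 13.8 CPM, against 150.1 and 159.7 CPM (log2 -3.82 ± 0.25).

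The mitosis genes fell more than the replication genes in thymus, with median log2 changes of -3.85 and -2.25 (all genes 0.02). Besides Mki67 and Top2a, log2 changes of -4 or beyond were found for Ccnb1 (-4.10), Ccnb2 (-4.22), Aurka (-4.67), Aurkb (-5.10), Cdca3 (-4.11), Cdca8 (-4.58) and Ube2c (-4.38), and among replication genes for Cdc6 (-4.32). The helicase subunits spread widely, with Mcm2 at -3.31, Mcm5 at -3.18, Mcm3 at -2.31, Mcm7 at -2.18, Mcm6 at -2.15 and Mcm4 at -1.15. Pcna changed by -2.49, Rrm2 by -3.67 and Tyms by -1.84. Cdt1 also changed by -1.15, and the cyclin E gene Ccne2 by -1.76. Of the 42 calls, 39 held without any single library; Cdkn3 was lost without cisplatin replicate 3, Cdt1 without CMCTween replicate 3 and Kif20a, a motor of the late spindle, without any 1 of 3 libraries. Beyond the 43, the same pathways gave 42 of 43 other mitosis genes lower and 1 higher, and 34 of 40 other replication genes lower. All 13 thymocyte markers fell too, their sum being 786.4 to 956.5 CPM in cisplatin and 6411.0 to 6503.8 CPM in CMCTween thymuses with none at 0. Neutrophil markers rose in 6 of 6 tested genes (379.7 to 466.0 against 58.9 to 65.4 CPM), where 22.8% of all genes rose. Enterocyte markers rose in 4 of 4 (83.5 to 131.2 against 11.8 to 22.6 CPM). Lists of other cells were mixed. Of 7 crypt markers 4 rose and 1 fell, and of 5 hair and epidermis markers 4 rose and 1 fell. Of 6 B cell markers 1 rose, and of 2 red cell precursor markers 1 fell. Of 18 p53 target genes 10 rose and 3 fell. The part of these lists in the result was not tested.

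**Figure D3:**
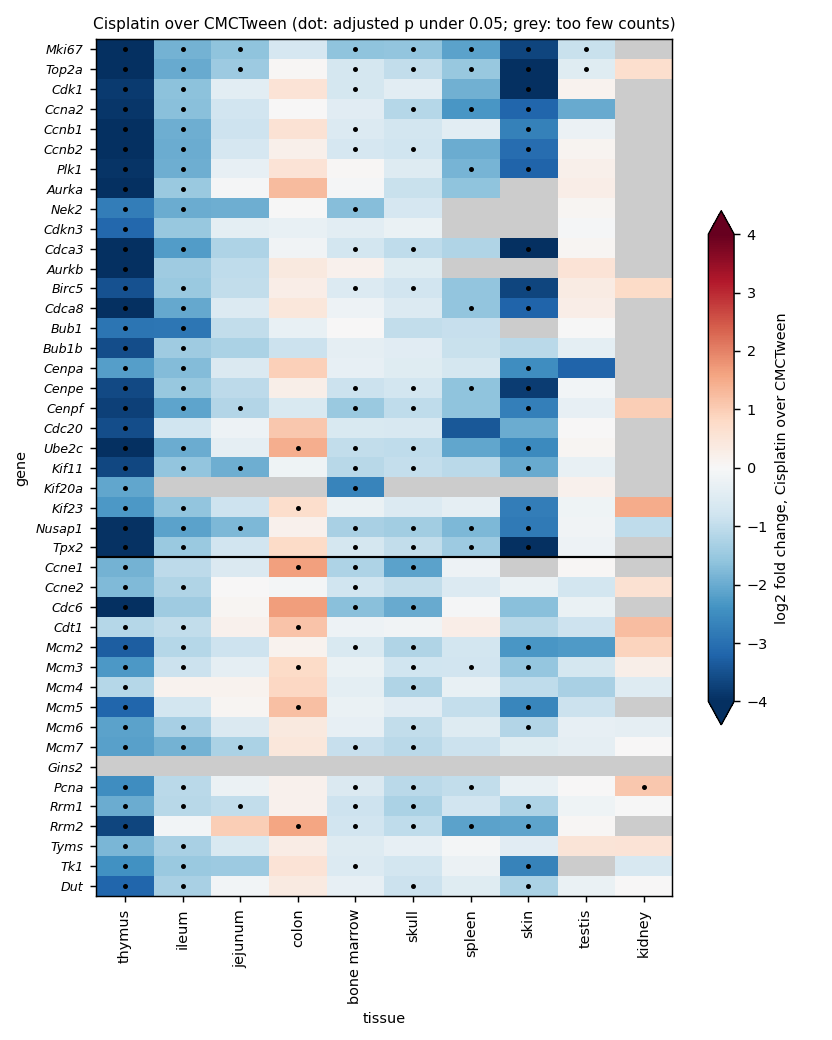
Log2 fold change (colour, limited at 4 in both directions) of each gene in cisplatin over CMCTween mice in 10 tissues, with a dot where the edgeR adjusted p was under 0.05 and grey where counts were too few. The thymus column is blue in every tested row, and darker in most mitosis rows than in most replication rows. Ileum is blue in most rows, bone marrow and skull are paler and mixed, and the red cells with dots are 7 in colon and Pcna in kidney.

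Along the gut, ileum, jejunum and colon were each tested under the same drug. In ileum 33 of 41 tested genes fell, with 14.5% of all genes falling. Mitosis genes summed to 645.5 and 716.5 CPM in cisplatin ileums, against 2006.6 and 2597.0 CPM in CMCTween ileums (ratio 0.296). The replication sum was 424.6 and 484.3 CPM against 834.1 and 1059.9 CPM (ratio 0.480). Mki67 fell to 96.1 and 57.0 CPM, against 215.2 and 317.6 CPM (log2 -1.89 ± 0.22, edgeR adjusted p = 2.62e-09), Top2a by log2 -2.01, Cdk1 by -1.63 and Ccnb1 by -1.95. The helicase subunits again divided: Mcm7 (-1.90), Mcm6 (-1.34), Mcm2 (-1.15) and Mcm3 (-0.86) fell, whereas Mcm5 had -0.75 and Mcm4 0.14 without a call. Rrm2 had 23.6 and 24.2 CPM in cisplatin and 25.6 and 23.7 CPM in CMCTween ileums, with overlap, although Pcna (-1.08) and Tyms (-1.29) fell.

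The other ileum genes without a call were Cdkn3, Aurkb, Cdc20, Ccne1 and Cdc6, and 24 of the 33 calls held without any single library. Those that were lost without 1 library were Aurka, Nek2, Bub1b, Ccne2, Cdt1, Mcm2, Mcm3, Pcna and Tyms; each ended without cisplatin replicate 1 or cisplatin replicate 3, and some also without a CMCTween library. Of other mitosis genes 28 of 40 fell and of other replication genes 21 of 38. Crypt markers fell in 8 of 9 genes (353.7 to 387.6 CPM in cisplatin, 1173.7 to 1490.7 CPM in CMCTween ileums) and Paneth cell markers in 5 of 6 (3567.9 to 3603.8 against 20937.7 to 28082.1 CPM), with none of either list at 0. B cell markers rose in 5 of 7 tested genes (175.3 to 230.4 against 61.7 to 107.9 CPM, Vpreb1 and Igll1 at 0) and p53 target genes in 7 of 17, where 14.7% of all genes rose. The part of these lists in the result was not tested.

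In jejunum 7 of 41 genes fell (Mki67, Top2a, Cenpf, Kif11, Nusap1, Mcm7 and Rrm1; 2.84% of all genes). The count was 13 without sofosbuvir replicates 3 and 4, which share the fit, and 16 against the mean of set C. The cisplatin libraries differed from each other, with mitosis sums of 587.0 and 1388.7 CPM, against 1548.3 and 2593.4 CPM in CMCTween. Nusap1, which bundles spindle microtubules, was the only call held without any single library, at 26.9 and 32 CPM against 122.9 and 83.2 CPM (log2 -1.81 ± 0.29, edgeR adjusted p = 0.000212). The genes without a call included Cdk1 (log2 -0.43), Ccnb1 (-0.84), Pcna (-0.22), Tyms (-0.62) and Rrm2 (0.98), with Mcm2 to Mcm6 between -0.82 and 0.13. Mki67 (log2 -1.61), Top2a (-1.46), Cenpf (-1.18), Kif11 (-1.96), Mcm7 (-1.26) and Rrm1 (-0.97) each lost their call without CMCTween replicate 3 and without cisplatin replicate 1, so that 1 gene fell in either of these fits and 13 fell without cisplatin replicate 3. Crypt markers fell in 5 of 9 genes (587.0 to 742.4 CPM in cisplatin, 1182.3 to 1469.0 CPM in CMCTween jejunums) and Paneth markers in 4 of 6. Of 17 p53 target genes 7 rose (2.70% of all genes). The part of these lists was not tested.

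In colon none of the calls was downward and 7 genes rose (5.86% of all genes): Ube2c, Kif23, Ccne1, Cdt1, Mcm3, Mcm5 and Rrm2. DESeq2 called 2 genes higher, and a fit with the replicate number as a block 4. Ube2c, at 176.7 and 135.9 CPM in cisplatin and 67.2 and 42.8 CPM in CMCTween colons (log2 1.45 ± 0.22, edgeR adjusted p = 2.89e-06), was the only one held without any single library. Rrm2 (log2 1.57) was lost without CMCTween replicate 3, Mcm5 (1.2) without either CMCTween library or cisplatin replicate 1, and Mcm3 (0.77), Cdt1 (1.15), Ccne1 (1.65) and Kif23 (0.69) whichever of the 4 libraries was left out. Between 2 and 3 genes rose in these 4 fits. The mitosis sum was 1439.3 and 1465.3 CPM in cisplatin colons, against 1060.8 and 1345.1 CPM in CMCTween colons (ratio 1.21), and the replication sum 674.4 and 687.7 CPM against 428.3 and 470.0 CPM (ratio 1.52). Mki67, at 82.7 and 92.5 CPM against 153.8 and 115.3 CPM (log2 -0.67), had no call, nor did Top2a (0.04), Cdk1 (0.54), Ccnb1 (0.59), Pcna (0.17), Mcm2 (0.15), Mcm4 (0.82), Mcm6 (0.40), Mcm7 (0.46) or Tyms (0.29). Of 19 p53 target genes, which a DNA-damaged cell switches on, 14 rose in colon (2440.0 to 2555.9 against 831.4 to 1035.5 CPM). Of 8 crypt markers 3 fell (5.08% of all genes). The part of these lists was not tested.

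The downward response was larger in ileum than in colon for 29 of 41 genes when the difference itself was tested (5.20% of all genes), with Top2a differing by log2 -2.02, Cdk1 by -2.14, Ccnb1 by -2.50 and Mcm7 by -2.33. Between jejunum and ileum it differed for Ube2c alone (1.06% of all genes), by log2 1.64 (edgeR adjusted p = 0.0326), and for no gene with column sums in place of TMM. The median difference was log2 0.77 toward a smaller fall in jejunum (all genes 0.01). By the same test 11 genes had an unadjusted p under 0.05. The counts of 33 and 7 in these 2 segments thus do not by themselves show a difference.

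In bone marrow 24 of 42 genes fell (11.1% of all genes) and the changes were smaller than in thymus. Mitosis genes summed to 4163.2 and 4337.8 CPM in cisplatin marrows, against 7280.8 and 7646.5 CPM in CMCTween marrows (ratio 0.569), and the replication sum 1565.9 and 1674.7 CPM against 2417.7 and 2420.2 CPM (ratio 0.670). Mki67 had 485.2 and 552.2 CPM against 1453.1 and 1574.5 CPM (log2 -1.60 ± 0.13, edgeR adjusted p = 3.33e-18). Cenpf, a large protein of the kinetochore, fell by log2 -1.49, Nusap1 by -1.29, Cdc6 by -1.67, Ccne1 by -1.22, the motor gene Kif11 by -1.12, Ube2c by -0.97, Mcm7 by -0.93, Cenpe by -0.86, Rrm1 by -0.82, Top2a and Cdk1 by -0.71 each and Birc5 by -0.54. These 13 calls held without any single library; Ccnb1 (-0.56), Mcm2 (-0.62), Pcna (-0.57) and Rrm2 (-0.77) were among the 11 that did not, Rrm2 without cisplatin replicate 3 and Mcm2 without that library or CMCTween replicate 3. Nek2 (-1.70), Ccnb2 (-0.67), Cdca3 (-0.73) and Pcna were lost without cisplatin replicate 3 as well, Tpx2 (-0.70) and Ccne2 (-0.80) without cisplatin replicate 1, and Kif20a (-2.64), Tk1 (-0.55) and Ccnb1 without either. Without cisplatin replicate 3 the count was 15 genes.

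Other genes of the same machinery overlapped between the groups in marrow. Plk1, the polo kinase, had 201.1 and 135.3 CPM in cisplatin and 179.7 and 139.4 CPM in CMCTween marrows (log2 0.05 ± 0.18). Aurka (log2 -0.04) and Bub1 (0.02) were as close, and Mcm3 (-0.28), Mcm4 (-0.40), Mcm5 (-0.28), Mcm6 (-0.34) and Tyms (-0.52) had no call. All 11 tested red cell precursor markers fell, to 12 to 13.5 CPM in cisplatin, against 4573.3 to 5396.4 CPM in CMCTween marrows, with Hbb-bt at 0 in both. All 9 B cell markers fell (191.4 to 205.7 against 654.2 to 679.7 CPM). Of 11 neutrophil markers 6 rose (89194.7 to 108803.0 against 72063.5 to 80056.4 CPM), where 7.83% of all genes rose. The part of these lists in the result was not tested. The fall was smaller in marrow than in thymus for 38 of 42 genes when the difference was tested (13.5% of all genes), by log2 2.74 for Mki67, 3.45 for Top2a, 4.04 for Plk1 and 2.0 for Pcna.

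Skull, which holds marrow, lost 23 of 41 genes under cisplatin (5.39% of all genes), with mitosis sums of 2273.7 and 2302.7 CPM in cisplatin skulls, against 4297.2 and 4842.7 CPM in CMCTween. Mki67 had 319.3 and 284.1 CPM in cisplatin and 843.4 and 978.7 CPM in CMCTween skulls (log2 -1.59 ± 0.15, edgeR adjusted p = 2.76e-11). Ccne1 (-2.14), Cdc6 (-2.02), Nusap1 (-1.40), Rrm1 (-1.26), Mcm2 (-1.19), Ccna2 (-1.15), Mcm7 and Pcna (-1.09 each), Rrm2 and Ube2c (-1.03 each), Cenpf (-1.01), Top2a (-1.0) and Birc5 (-0.78) also fell and held without any single library. Mcm4 (-1.19), Mcm6 (-0.99), Mcm3 (-0.81), Dut (-0.86) and Ccnb2 (-0.80) fell but were lost without cisplatin replicate 3, and Cdca3 (-1.02), Tpx2 (-1.0), Kif11 (-0.94) and Cenpe (-0.72) without cisplatin replicate 2. Cdk1 (-0.41), Ccnb1 (-0.75), Mcm5 (-0.45) and Tyms (-0.33) had no call. The red cell precursor list was at 13 to 16.1 CPM in cisplatin and 2322.6 to 2655.3 CPM in CMCTween skulls, with 11 of 11 genes lower. Neutrophil markers rose in 7 of 11 genes (41347.9 to 48852.4 against 27253.7 to 27875.6 CPM), where 3.94% of all genes rose, and B cell markers fell in 3 of 9 (251.2 to 251.8 against 463.6 to 523.7 CPM); the part of these lists was not tested. The marrow and skull responses differed in 0 of 42 genes by edgeR's quasi-likelihood test (0.692% of all genes in either direction), with 12 genes at an unadjusted p under 0.05.

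In spleen 11 of 38 genes fell (2.74% of all genes), and no call held in each fit with 1 library left out: 1 gene fell without cisplatin replicate 3 and 4 without each of the other 3 libraries. The mitosis sum was 397.8 and 441.2 CPM in cisplatin spleens, against 1135.7 and 1295.4 CPM in CMCTween spleens. Mki67 had 39.3 and 40.4 CPM in cisplatin and 174.6 and 181.5 CPM in CMCTween spleens, far apart in level, yet with an adjusted p of 0.0416 by edgeR and 0.143 to 0.25 when 1 library was left out. Red cell precursor markers summed to 10.8 to 11.9 CPM in cisplatin and 208.9 to 493.9 CPM in CMCTween spleens with 1 of 11 genes called. Of 8 neutrophil markers 4 rose (976.2 to 1610.9 against 116.2 to 173.6 CPM), where 2.53% of all genes rose. The part of these lists was not tested. The spleen response was smaller than that of thymus for 33 of 41 genes (7.84% of all genes), and that of marrow smaller than that of spleen for Birc5, Cdca8, Plk1 and Rrm2 (3.49% of all genes).

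Skin held 26 fallen genes of 35 (7.57% of all genes), but its 2 CMCTween libraries differed: the mitosis sum was 71.1 and 106.5 CPM in cisplatin skins, against 1329.9 CPM in CMCTween replicate 3 and 336.1 CPM in CMCTween replicate 4. Mki67 shows the pattern, with 13.5 and 5.58 CPM in cisplatin skins and 211.5 and 37.5 CPM in CMCTween skins, and it was not called without CMCTween replicate 3 or cisplatin replicate 3. The count was 3 genes without CMCTween replicate 3, 10 without cisplatin replicate 3 and 13 without cisplatin replicate 1. Among the genes that lost their call without CMCTween replicate 3 were Top2a (log2 -4.02), Ccnb1 (-2.69), Mcm5 (-2.60), Mcm2 (-2.34), Rrm2 (-2.12), Mcm3 (-1.54) and Mcm6 (-1.18). The calls that held without any single library were Cdk1 (1.22 and 0 CPM against 62.9 and 14.1 CPM), Birc5 (log2 -3.67) and Cdca8 (log2 -3.20). Hair and epidermis markers fell in 8 of 10 genes (6515.3 to 8606.6 against 9248.3 to 13655.5 CPM), and their part was not tested.

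Testis and kidney had few calls. In testis 2 of 41 genes fell, Mki67 and Top2a (0.495% of all genes), Mki67 with 24 and 32.6 CPM in cisplatin and 52.2 and 56.0 CPM in CMCTween testes (log2 -0.89 ± 0.23), and neither was called without CMCTween replicate 3, cisplatin replicate 1 or cisplatin replicate 3. Of 6 spermatogonia markers 2 fell (203.8 to 219.0 against 238.8 to 375.7 CPM), and their part was not tested. The fall was smaller in testis than in marrow for 13 of 42 genes (3.76% of all genes). In kidney only 5 mitosis and 12 replication genes had enough counts to be tested. The 1 call among them was no larger a share than that of all genes. In kidney Pcna rose to 53.3 and 43.4 CPM, against 23.3 and 19.7 CPM (log2 1.09 ± 0.33, edgeR adjusted p = 0.00856; 11.3% of all genes rose), a call lost without CMCTween replicate 4 or cisplatin replicate 1. DESeq2 and the replicate block called no gene higher, and the mean of set C as comparison gave 4. In the same kidneys 18 of 20 p53 target genes rose, their sum being 3130.0 to 4108.0 CPM, against 405.7 to 435.6 CPM. Pcna and 4 other genes (Cenpf, Kif23, Mcm7 and Rrm2) responded more upward in kidney than in marrow when the difference was tested (7.32% of all genes).

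In the other 14 tissues cisplatin gave 2 higher and 8 lower calls in 242 gene and tissue tests, while 7.56% of all gene tests there were called in 1 direction or the other. Of these 10 calls 3 held without any single library. Cenpf in heart had 29.6 and 22.4 CPM in cisplatin and 162.4 and 194.9 CPM in CMCTween hearts (log2 -2.78), and the other 7 drugs of the set lay between 20.9 CPM (aripiprazole) and 134.1 CPM (lenalidomide). Rrm1 in skeletal muscle (log2 -1.91) and Top2a in parotid gland (log2 -2.10) were the others. Over all 24 tissues Top2a was called lower with cisplatin in 10 tissues, Mki67 in 8 and Cenpf, Nusap1, Pcna and Rrm1 in 7 each. These counts include calls that did not hold without each library, such as Pcna in eye and adrenal gland. Against the same CMCTween libraries, Pcna was also called lower in eye with lenalidomide and in adrenal gland with teriparatide.

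APAP, given 2 h earlier, lowered 41 of 42 genes in thymus, where 15.1% of all genes fell. Mitosis genes summed to 895.6 and 934.3 CPM in APAP thymuses, against 4754.6 to 6515.0 CPM in the 4 Sucrose and Untreated thymuses (ratio 0.164). The replication sum was 651.4 and 809.4 CPM against 2217.8 to 2579.3 CPM (ratio 0.307). Cdk1 had 27.3 and 23.7 CPM in APAP thymuses, 272.4 and 269.8 CPM in Sucrose thymuses and 499.8 and 515.9 CPM in Untreated thymuses (log2 -4.07 ± 0.20, edgeR adjusted p = 1.55e-28). Plk1 followed at 33.0 and 28.1 CPM, against 321.8 and 282.8 CPM in Sucrose and 433.3 and 520.2 CPM in Untreated thymuses (log2 -3.84 ± 0.19). Mki67 changed by log2 -2.19 and Top2a by -2.57, and no APAP library overlapped the 4 others in any of these 4 genes.

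The remaining thymus genes fell by log2 -3.53 (Ube2c), -3.51 (Tpx2), -3.43 (Ccna2), -3.32 (Cdca8), -3.26 (Cdca3), -3.19 (Cdc20), -3.17 (Birc5) and -3.01 (Nusap1) among mitosis genes, with Ccnb1 at -2.68. Rrm2 (-3.10), Mcm6 (-2.22), Tyms (-2.21), Mcm5 (-2.09), Pcna (-1.93), Mcm3 and Mcm4 (-1.70 each), Mcm2 (-1.52) and Mcm7 (-1.27) fell among replication genes. Nek2 and Cdkn3 had no count in either APAP thymus and were at least 5.53-fold and at least 3.75-fold lower, taken against 3 counts over the group. Kif20a was the gene without a call, and Aurkb was lost without APAP replicate 2 and Ccne1 without APAP replicate 1. Of the other mitosis genes 41 of 43 fell and of the other replication genes 31 of 40. Of 13 thymocyte markers 4 fell and 1 rose, and their sum overlapped, at 4809.8 to 5138.0 CPM in APAP and 4365.1 to 5553.1 CPM in Sucrose and Untreated thymuses.

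In the intestine APAP separated the 2 groups of genes. In ileum 21 of 25 mitosis genes and 4 of 16 replication genes fell (7.04% of all genes), in jejunum 20 and 8 (9.41%) and in colon 21 and 7 (4.66%). The mitosis sum was 528.4 and 565.7 CPM in APAP ileums, against 1640.0 to 2403.7 CPM (ratio 0.272), while the replication sum was 394.4 and 416.4 CPM against 566.7 to 729.6 CPM (ratio 0.625). The ratios were 0.276 and 0.550 in jejunum and 0.246 and 0.609 in colon. In none of the 3 segments did the APAP libraries overlap the others in either sum. The median log2 changes of mitosis and replication genes were -1.71 and -0.61 in ileum, -1.54 and -0.88 in jejunum, and -1.99 and -0.76 in colon, with all genes tested at -0.05, -0.06 and -0.02.

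Plk1, which drives spindle assembly, was low in every APAP library of the gut. It had 15.6 and 22.9 CPM in APAP ileums, against 149.6 and 135.6 CPM in Sucrose and 198.5 and 220.1 CPM in Untreated ileums (log2 -3.05 ± 0.23, edgeR adjusted p = 8.99e-14). In jejunum it had 14 and 24.7 CPM, against 156.6 to 204.0 CPM (log2 -3.05 ± 0.41), and in colon 27.6 and 19.7 CPM, against 106.7 to 155.8 CPM (log2 -2.39 ± 0.20). Cdc20 changed by log2 -2.51 in ileum, -2.91 in jejunum and -2.20 in colon, Ube2c by -2.35, -1.90 and -2.41, Ccnb1 by -2.61, -2.28 and -3.37, Cdk1 by -1.76, -1.97 and -1.75, Top2a by -1.71, -1.54 and -2.05, and Mki67 by -1.13, -1.30 and -1.63, all of them called. Cenpe and Cenpf fell by log2 -1.96 and -1.84 in ileum, -2.02 and -2.32 in jejunum, and -2.93 and -1.72 in colon.

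The replication genes of the gut lay closer to their controls. Cdt1, which loads the helicase, had 54.2 and 60.3 CPM in APAP ileums and 52.1 to 62.4 CPM in Sucrose and Untreated ileums (log2 0.11 ± 0.22), and in jejunum 73.4 and 101.9 CPM against 72.8 to 90.6 CPM (log2 0.31 ± 0.24). Pcna was not called in ileum (-0.64), jejunum (-0.30) or colon (-0.24), nor were Mcm2 (-0.70, -0.83 and -0.42) and Mcm4 (-0.57, -0.69 and -0.29). Mcm3 (-0.51), Mcm6 (-0.44), Rrm2 (-0.89) and Tyms (-0.30) in ileum, Mcm7 in jejunum (-0.60) and Mcm7 (-0.64) and Rrm2 (-1.08) in colon had no call either. Mcm7 fell in ileum (32.5 and 26.5 CPM against 50.4 to 85.9 CPM, log2 -1.08 ± 0.22, edgeR adjusted p = 0.000303) and Mcm3 in jejunum (22.7 and 35.4 CPM against 88.5 to 109.9 CPM, log2 -1.58 ± 0.28, edgeR adjusted p = 0.000241). These were the only calls among the helicase genes of the 3 segments that held without any single library. Mcm5 fell in all 3 segments (log2 -0.85, -1.2 and -1.15), Mcm6 in jejunum (-1.13) and colon (-0.83), Mcm3 in colon (-0.77), Tyms in jejunum and colon (-0.84 each) and Rrm2 in jejunum (-1.30), none of which held without APAP replicate 1.

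In all, 15 of 25 calls in ileum, 13 of 28 in jejunum and 17 of 28 in colon held without any single library, and leaving out APAP replicate 1 or 2 ended each of the others, including Mki67 and Ccnb1 in jejunum. In jejunum 16 genes fell without APAP replicate 1 and 17 without APAP replicate 2, and in colon 17 without APAP replicate 1. DESeq2 called 11 genes lower in APAP colon. Of other mitosis genes 27 of 40 fell in ileum, 24 of 40 in jejunum and 24 of 38 in colon, and of other replication genes 4 of 38, 10 of 39 and 6 of 33. Crypt markers fell in 2 of 9 genes in ileum (603.1 to 606.6 against 775.0 to 878.4 CPM) and in 3 of 9 in jejunum (417.8 to 471.0 against 921.5 to 1195.2 CPM), and in colon their sum overlapped (911.9 to 933.2 against 861.5 to 933.6 CPM, Olfm4 at 0). Enterocyte markers rose in 10 of 11 genes in ileum (6378.4 to 8737.0 against 569.2 to 4009.0 CPM) and in 4 of 11 in jejunum, and in colon in 2 of 7 (949.8 to 1019.5 against 604.4 to 811.3 CPM). The shares of all genes that rose were 9.15% in ileum, 12.1% in jejunum and 3.5% in colon. Paneth markers fell in 3 of 6 genes in jejunum (7260.0 to 7592.1 against 14664.9 to 28362.1 CPM). Their part in the result was not tested.

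Calls were also counted by promoter element. Element and role overlap, since the CHR promoters are nearly all those of mitosis genes, and their separate parts were not tested. In APAP ileum 15 of 17 genes with CHR letters fell, 2 of 6 with E2F letters and no CHR, and 6 of 13 with neither, with median log2 changes of -1.58, -0.48 and -1.04. Those with neither that fell were Birc5, Ccnb1, Cenpe and Nusap1 of mitosis and Dut and Rrm1 of replication. In jejunum the counts were 14, 4 and 8 (medians -1.54, -1.16 and -1.04) and in colon 15, 3 and 8 (medians -1.90, -0.77 and -1.08). Among these APAP segments, the E2F group had a median beyond that of the group with neither in jejunum alone. Under cisplatin the same groups gave 15 of 17, 4 of 6 and 11 of 13 in ileum (medians -1.75, -1.16 and -1.47). In bone marrow the counts were 9, 2 and 10 (medians -0.62, -0.31 and -0.57). In skull they were 8, 4 and 8 (medians -0.80, -0.90 and -0.86), where the CHR group had the smallest median fall. Cdc20 and Mcm6, a CHR and an E2F promoter of those printed, changed by log2 -2.51 and -0.44 in APAP ileum.

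**Figure D4:**
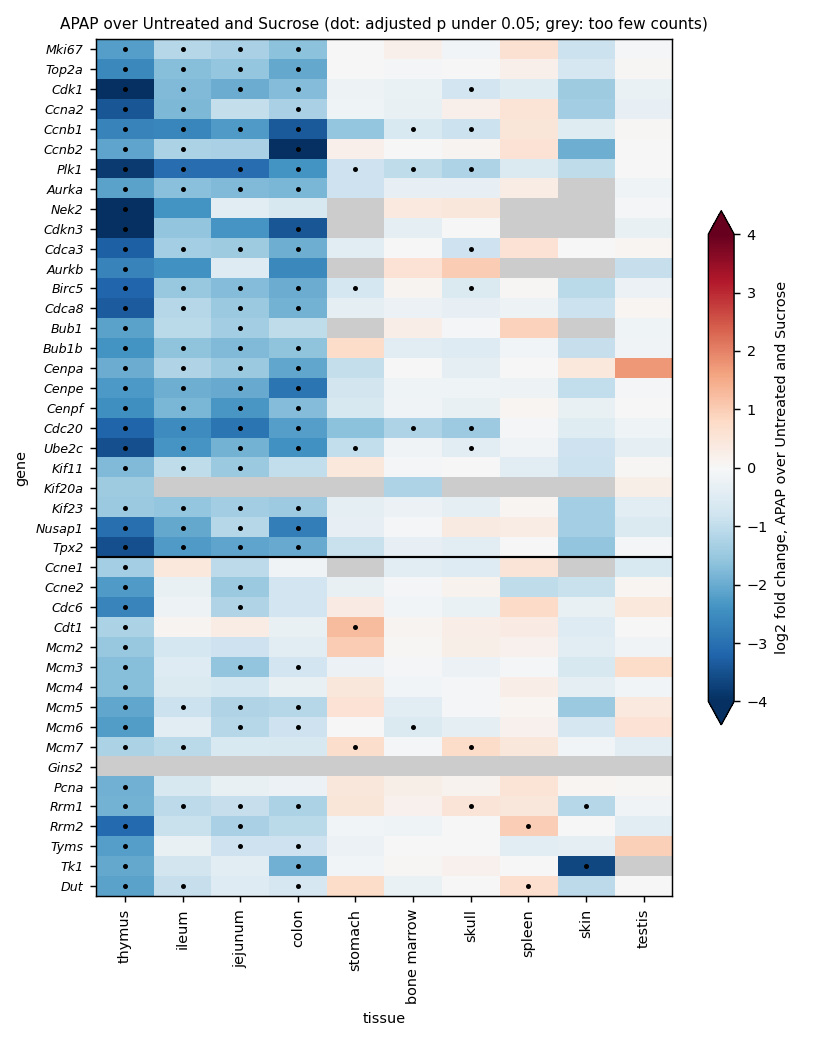
Log2 fold change (colour, limited at 4 in both directions) of each gene in APAP mice over the mean of Untreated and Sucrose mice in 10 tissues, with a dot where the edgeR adjusted p was under 0.05 and grey where counts were too few. Thymus is blue in every tested row, whereas in ileum, jejunum and colon the blue cells with dots gather above the line, among the mitosis genes.

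In blood-forming tissue APAP touched fewer genes. In bone marrow 4 of 42 fell (2.87% of all genes). Plk1 had 212.2 and 139.2 CPM in APAP marrows, against 366.3 and 313.4 CPM in Sucrose and 358.5 and 401.6 CPM in Untreated marrows (log2 -1.01), and Cdc20 had 24 and 22.2 CPM against 49.3 to 59.6 CPM (log2 -1.23). These 2 calls held without any single library, and Ccnb1 (-0.61) and Mcm6 did not, leaving 2 calls without APAP replicate 2. Of 11 red cell precursor markers 2 rose (8557.9 to 8874.4 CPM in APAP marrows, 5931.7 to 7387.7 CPM in Sucrose and Untreated marrows), where 2.86% of all genes rose. Of 11 neutrophil markers 3 fell (113183.1 to 123629.2 against 124275.2 to 131551.6 CPM). Of 9 B cell markers 2 fell and 1 rose (420.8 to 511.2 against 550.9 to 655.5 CPM). The part of these lists was not tested. In skull 7 genes fell (5.27% of all genes): Cdk1, Ccnb1, Plk1, Cdca3, Birc5, Cdc20 and Ube2c, of which Plk1 (117.2 and 133.7 CPM against 253.1 to 299.4 CPM, log2 -1.23) held without any single library and was the 1 gene lower without APAP replicate 2. Mcm7 and Rrm1 rose in skull (3.68% of all genes), and neither was called without APAP replicate 2. In skull 2 of 11 red cell precursor markers rose (3421.2 to 3817.2 against 2421.0 to 3521.5 CPM, with overlap), and of 9 B cell markers 2 fell and 1 rose; their part was not tested. Thus Plk1 fell in bone marrow, skull, thymus, stomach and the 3 intestinal segments, and Ccnb1 and Cdc20 in the same tissues without stomach. Mki67 and Top2a were without a call in bone marrow and skull.

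In the other 18 tissues APAP gave 4 higher and 17 lower calls in 373 tests, against 8.63% of all gene tests called in 1 direction or the other. Stomach held 5 of them, with Plk1, Birc5 and Ube2c lower (5.02% of all genes) and Cdt1 and Mcm7 higher (4.68%). There 21 mitosis and 15 replication genes were tested, and over both groups together these counts lie near the shares of all genes. The lower genes were all of mitosis and the higher genes all of replication. The median log2 changes of the groups were -0.44 and 0.45 (all genes -0.01). White fat, with 11 mitosis and 10 replication genes tested, held 4, all lower (7.09% of all genes): Mki67, Top2a, Cenpe and Nusap1. These were not refitted with libraries left out.

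Sucrose against Untreated bears on the APAP result, because the 2 are averaged there. In thymus 18 of 42 genes were lower in Sucrose than in Untreated mice (9.50% of all genes), and 6 calls held without any single library: Birc5 (log2 -1.02), Cdk1 (-1.0; 272.4 and 269.8 CPM against 499.8 and 515.9 CPM), Cenpa (-0.88), Plk1 (-0.75), Nusap1 (-0.67) and Cenpf (-0.59). The count was 8 genes without Sucrose replicate 1 and 9 without Untreated replicate 4. Mki67 had 356.1 and 377.0 CPM in Sucrose and 315.8 and 301.5 CPM in Untreated thymuses (log2 0.15 ± 0.15). In bone marrow Mki67, Kif11 and Pcna were higher (2.36% of all genes) and Ube2c, Nusap1, Mcm6 and Tk1 lower (4.72%), calls not refitted with libraries left out. Sofosbuvir, an antiviral nucleotide analogue, lowered 11 genes in thymus (1.68% of all genes), none of which was called without sofosbuvir replicate 2, and none against Sucrose alone. In jejunum 4 of 41 genes were called higher with sofosbuvir (Ccne2, Mcm2, Pcna and Tk1), a share near the 7.20% of all genes. The count was 0 with the libraries of set A only and under the replicate block, 1 by DESeq2 and 2 with RLE factors. The 4 sofosbuvir libraries did not resemble the same set: over 7059 genes their deviations correlated with those of set A at 0.27 and 0.45 in replicates 1 and 2 and at -0.30 and -0.21 in replicates 3 and 4. Tk1 had 21.0, 32.4, 115.1 and 107.0 CPM in the 4 sofosbuvir jejunums and 20 to 37.8 CPM in Sucrose and Untreated jejunums, so that replicates 3 and 4 alone stood high. Without them Tk1 differed by log2 -0.08 and Pcna by -0.01.

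The drugs of set B share their comparison libraries, so a gene that is high with 1 drug lowers the others. Risedronate, a bisphosphonate that acts on bone-resorbing cells, went with lower levels of 7 genes in bone marrow (Mki67, Top2a, Cenpe, Cenpf, Kif11, Nusap1 and Mcm3; 6.92% of all genes) and a higher level of Plk1 (6.08%), where RLE factors gave 3 higher genes and column sums or no filter 4. Mki67 had 569.3 and 846.1 CPM in risedronate marrows and 1146.2 to 2062.5 CPM in the marrows of the other 4 drugs (log2 -1.09 ± 0.11, edgeR adjusted p = 1.22e-12); it held without any single library, as did Cenpf (-0.77) and Nusap1 (-0.61). These were the 3 genes left without risedronate replicate 1. Of 11 neutrophil markers 4 were higher, of 11 red cell precursor markers 2, and of 9 B cell markers 2 were higher and 1 lower, each list's sum overlapping between risedronate and the other drugs; their part was not tested. The 7 lower genes had longest coding transcripts with a median of 5221 bases and 43.3% GC, and the 34 without a call a median of 2963 bases and 48.8% GC. In ileum risedronate went with 5 lower genes, all among those 7 (Mki67, Top2a, Cenpe, Cenpf and Nusap1; 5.77% of all genes), with a median of 7910 bases against 2963 bases without a call. Transcript length and GC moved with these calls. Genes fallen with cisplatin differed in the same direction. Their medians were 3352 bases and 47.6% GC in bone marrow, against 2582 bases and 50.3% without a call. In skull they were 3371 bases and 47.3%, against 2344 bases and 50.4%. With APAP in ileum the medians were 3334 against 3018 bases. Genes higher with risedronate in spleen were shorter, at 2985 against 3352 bases. The part of length and GC was not tested.

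In spleen 12 genes were higher with risedronate (1.25% of all genes), and each call was lost without risedronate replicate 1. The count was 6 without olanzapine replicate 2 and 7 without lurasidone replicate 1. Mki67 had 503.5 and 219.8 CPM there, against 87.9 to 481.8 CPM in the spleens of the other 4 drugs, with overlap. Red cell precursor markers summed to 1010.1 to 2381.0 CPM in risedronate spleens and 258.6 to 1211.7 CPM in the others, 2 of 11 genes being higher, and their part was not tested. Asenapine, an antipsychotic, went with 8 lower genes in thymus (5.35% of all genes) and with a higher Tk1 (3.80%); Mki67 (524.5 and 386.2 CPM against 581.4 to 1122.7 CPM, log2 -0.87 ± 0.13), Top2a (-0.71) and Cenpe (-0.65) held without any single library and were the 3 genes left without asenapine replicate 4. The 8 had a median transcript of 4793 bases and the 33 without a call 2965 bases. Olanzapine, of the same class, gave 3 higher (3.49% of all genes) and 3 lower genes (2.21%) in thymus, of which Top2a (1695.5 and 2007.5 CPM against 798.5 to 1513.1 CPM, log2 0.71 ± 0.10) was the 1 gene left without olanzapine replicate 2. In skull it gave 3 higher (1.95%) and 2 lower genes (1.47%), not refitted with libraries left out. The 3 higher had a median of 7910 bases, the 2 lower 2219 bases and the 36 without a call 3018 bases. With lurasidone in bone marrow the 4 higher genes, named next, had a median of 8985 bases and the 38 without a call 2985 bases. Lurasidone raised Mki67, Cenpe, Cenpf and Nusap1 in bone marrow (1.86% of all genes), where the low risedronate marrows are part of the comparison, and Mki67 (1709.4 and 2062.5 CPM against 569.3 to 1667.7 CPM, log2 0.75 ± 0.10) was the 1 gene left without lurasidone replicate 2.

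In set C, EMPA raised 6 genes in bone marrow (Ccnb1, Ube2c, Cdt1, Pcna, Rrm2 and Tk1; 0.838% of all genes), Pcna to 303.2 and 267.3 CPM, against 179.7 and 211.2 CPM in CMCTween marrows (log2 0.58 ± 0.16, edgeR adjusted p = 0.0343); each call was lost whichever of the 4 libraries was left out. Aripiprazole raised 5 genes in lung (Cdca3, Birc5, Cenpe, Cenpf and Nusap1; 6.81% of all genes). Cenpf had 53.2 and 64.7 CPM in aripiprazole lungs and 11.1 and 9.33 CPM in CMCTween lungs (log2 2.41 ± 0.41, edgeR adjusted p = 2.28e-05), and Cenpf, Birc5 and Cenpe held without any single library, being the 3 genes left without CMCTween replicate 3. In these lungs 7 of 7 spermatid markers rose, to 2466.9 to 2828.2 CPM, against 4.17 to 85.3 CPM in CMCTween lungs, and 3 of 4 spermatocyte markers. Their part in the result was not tested.

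**Figure D5:**
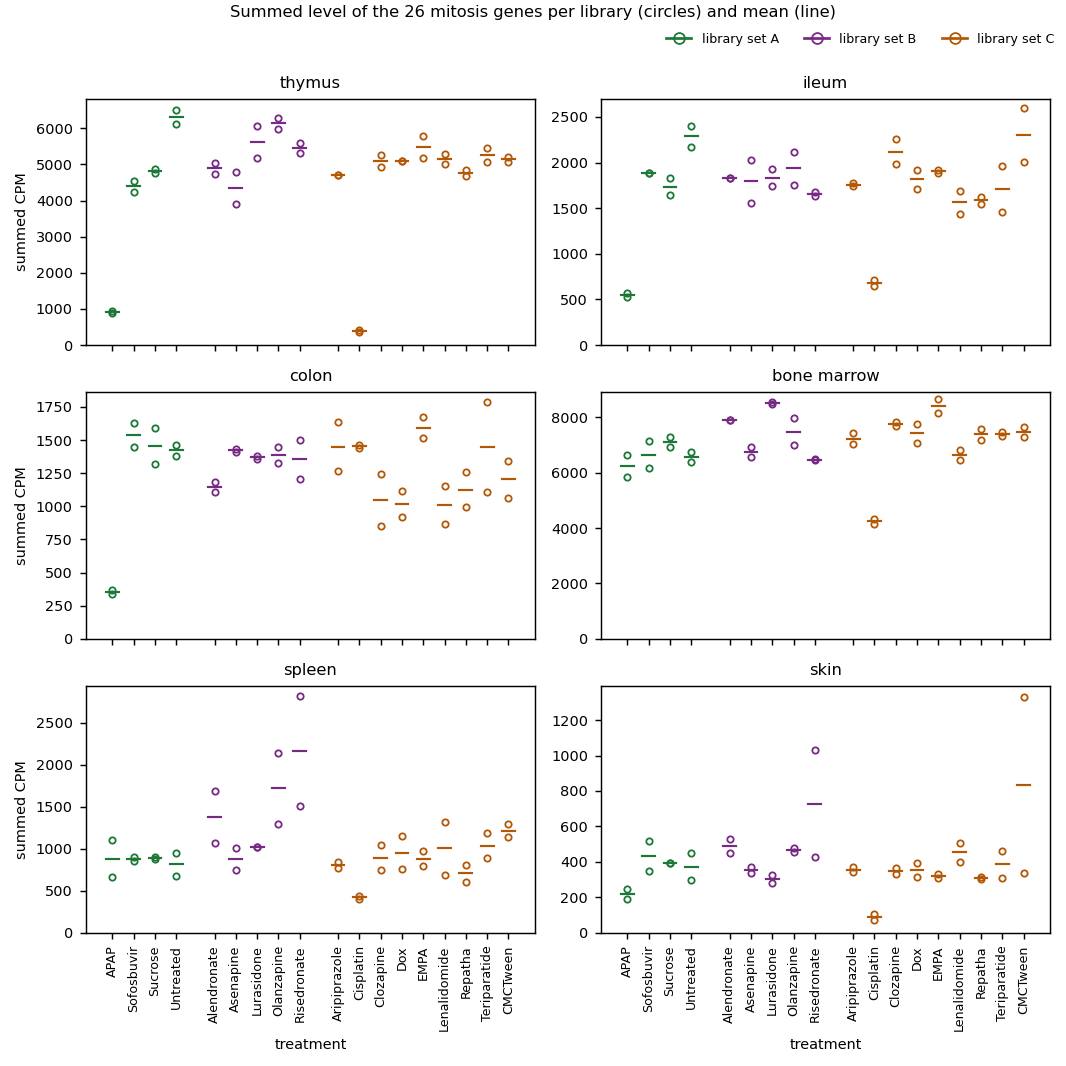
Summed CPM of the 26 mitosis genes in each library (circles) with the mean (line) for all 18 treatments in 6 tissues, coloured by library set, axes starting at 0. The lowest libraries are those of APAP and cisplatin in thymus and ileum, of APAP in colon, and of cisplatin in bone marrow, spleen and skin, where CMCTween replicate 3 reaches 1329.9 CPM.

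For the remaining 323 combinations of these 14 comparisons with a tissue, 31 of 8169 gene tests were higher and 51 lower, 1.0% of them, while 1.74% of all gene tests were called. The calls lay in 44 of the 323 combinations, with at most 4 genes in any. Over all tissues cisplatin gave 10 higher and 176 lower calls and APAP 6 and 150 in 621 tests each. Clozapine gave 3 calls, teriparatide 3, lenalidomide 1, Repatha 5 and Dox 5 in as many tests. These drugs share the CMCTween libraries. Pcna in eye with lenalidomide, Top2a in eye with clozapine and Pcna in adrenal gland with teriparatide lost their calls without CMCTween replicate 4. Each of these calls was also lost without either library of its own drug. Top2a in eye with Repatha held without any single library.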

How the data were processed

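RNA of 24 flash-frozen tissues of C57BL/6N mice was extracted with Trizol and read at the 3′ ends of transcripts with the QuantSeq 3′ mRNA-Seq kit, per the labels' protocols. The authors deposited 1 table of whole-number read counts per gene symbol for each tissue, 868 libraries in all, with 0 columns of no sample. The submitters' processing notes name bcl2fastq 2.17, TopHat2 2.1.1, HTSeq 0.9.1 and the mouse build mm10, with no settings. Whether counting used strand is not given in the sources used here, so a gene and an antisense partner cannot be told apart. Counts at 3′ ends are not divided by length.

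CPM values are the deposited counts divided by the column sum and scaled to 1000000. Each tissue was fitted with all its libraries in 1 model of 18 groups with edgeR 4.0.16 in R 4.3.3: genes kept by filterByExpr (minimum count 10), TMM normalization, quasi-likelihood F test with robust dispersion, and Benjamini-Hochberg adjustment over all genes tested, at a threshold of 0.05. Untreated libraries of the 24 tissues were fitted together. Responses were compared between tissues by the interaction term of a joint fit of set C. Fits were tested on simulated data. A gene with no count in 1 group was set against 3 counts over the group. Floors cover counting error only. Sofosbuvir jejunum libraries were set against the library sets by Pearson's r of log2(CPM + 1), centred on the mean of the 3 sets, over genes averaging at least 20 CPM. Other versions were DESeq2 1.42.0, Python 3.11.15, pandas 2.3.3 and scipy 1.17.1.

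Alternatives were DESeq2, RLE factors, column sums, no filter, the set's own libraries only, a replicate block, either control group of set A alone, the mean of set C as comparison, and leaving out each library in turn for the comparisons with most calls. Fits of Untreated libraries without 1 library kept the trended dispersion of the full fit. Leaving out single libraries for APAP outside thymus and for risedronate in bone marrow, and jejunum without sofosbuvir replicates 3 and 4, were chosen after seeing the data. The genes, lists, library sets and tests were chosen with earlier results of these data known. The text names Mki67, Top2a, Cdk1, Ccnb1, Pcna, Mcm2 to Mcm7, Rrm2 and Tyms, other genes whose call held without each library, up to 12 in each direction, and up to 4 without a call.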

Additional observations from a re-analysis of the deposited data

Results flagged for a closer look

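The mitosis sum in brain stood apart in 1 of the 4 asenapine libraries, at 45.4 CPM, with the other 3 at 55.2, 57.1 and 57.2 CPM. Its gap to the nearest library, over the range of the group, was 0.832, past Dixon's critical value for 4 samples. It was 1 of 52 such tests, and chance gives about 1 in 20.

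The cisplatin response differed between tissues by the interaction term of edgeR's quasi-likelihood test, Benjamini-Hochberg adjusted. Bone marrow and thymus differed in 38 genes, spleen and thymus in 33, ileum and colon in 29, testis and bone marrow in 13, kidney and bone marrow in 5, bone marrow and spleen in 4, and jejunum and ileum in 1.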

How the results depend on the processing

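The counts here are of genes called under each alternative. DESeq2 gave 2 higher genes for cisplatin in colon, 1 lower in testis, 0 in kidney, 11 lower for APAP in colon, 2 lower for Sucrose in bone marrow, 1 higher for sofosbuvir in jejunum, 7 for risedronate in spleen, 1 lower for olanzapine in thymus and 0 in skull, and 2 for aripiprazole in lung. RLE factors gave 2 higher for sofosbuvir in jejunum and 3 for risedronate in bone marrow. Column sums gave 5 higher and 1 lower for Sucrose in bone marrow, 7 lower for sofosbuvir in thymus, 2 higher for sofosbuvir in jejunum, 4 for risedronate in bone marrow, 2 for asenapine in thymus, 2 for EMPA in bone marrow, 12 higher and 3 lower in Untreated skin, 0 differing between jejunum and ileum and 8 between testis and bone marrow. Without the filter 2 rose for cisplatin in kidney, 1 for APAP in skull, 2 for sofosbuvir in jejunum and 4 for risedronate in bone marrow. The set's own libraries gave 1 higher for APAP in skull, 5 for Sucrose in bone marrow, 0 for sofosbuvir in jejunum and 1 lower for olanzapine in skull. Against Sucrose alone 1 fell with APAP in bone marrow, 1 rose in skull, and sofosbuvir gave 0 in thymus and 0 in jejunum; against Untreated alone it gave 21 and 0. Against the mean of set C 16 fell with cisplatin in jejunum, 13 in skin and 4 in testis, 4 rose in kidney, 15 with EMPA in bone marrow and 14 with aripiprazole in lung. Without sofosbuvir replicates 3 and 4, 13 fell with cisplatin in jejunum and 1 rose with sofosbuvir, and the signs of Pcna (-0.01) and Tk1 (-0.08) turned.

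The labels do not say that equal replicate numbers mark a shared animal, batch or day. Over 414 pairs of groups sharing both numbers, same-numbered libraries had a correlation of their deviations of -0.66 to 0.69 (median 0.02), above 0.1 in 85 pairs. The replicate block gave 4 higher for cisplatin in colon, 0 in kidney, 1 for Sucrose in bone marrow, 0 for sofosbuvir in jejunum, 0 for EMPA in bone marrow and 5 lower for asenapine in thymus.

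With 1 library left out in turn, the lower genes with cisplatin numbered 40 to 41 in thymus, 27 to 32 in ileum, 1 to 13 in jejunum, 15 to 20 in bone marrow, 16 to 22 in skull, 1 to 4 in spleen, 3 to 31 in skin and 0 to 2 in testis, and the higher 2 to 3 in colon and 0 to 2 in kidney. With APAP the lower numbered 40 to 41 in thymus, 19 to 24 in ileum, 16 to 27 in jejunum, 17 to 28 in colon, 2 to 4 in bone marrow and 1 to 7 in skull, with 0 to 3 higher there. Sucrose in thymus gave 8 to 15 lower and sofosbuvir in thymus 0 to 10. Risedronate gave 0 to 18 higher in spleen and 0 to 4 higher and 3 to 8 lower in bone marrow, asenapine in thymus 0 to 2 and 3 to 9, olanzapine in thymus 1 to 4 and 0 to 3, lurasidone in bone marrow 1 to 4 higher, EMPA 0 to 0 and aripiprazole in lung 3 to 4. Untreated skin gave 2 to 7 higher and 3 to 7 lower, and the other Untreated counts lay within 1.5 times the reported ones. The causes of these changes were not tested.

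Per gene, DESeq2 kept the side of the threshold for 912 of 982 tests, RLE for 1142 of 1152, column sums for 1108 of 1152 and the replicate block for 1098 of 1152. The mean of set C as comparison kept it for fewer, 363 of 449. Sucrose alone kept it for 288 of 331 and Untreated alone for 300 of 331. Jejunum without sofosbuvir replicates 3 and 4 kept it for 104 of 123. The median library held 877592 counts, which limits calls for genes with few counts.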

Other observations

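Genes that hold the cell cycle back were also measured, with a list of 13 that includes the CDK inhibitors Cdkn1a, Cdkn1b and Cdkn1c, the retinoblastoma family and the antiproliferative genes Btg1 and Btg2. With APAP 3 of 13 were higher and 4 lower in thymus, 3 and 1 in ileum, 4 and 0 in jejunum, and 2 and 1 in colon. Of all genes 10.6% were higher and 15.1% lower in thymus, 9.15% and 7.04% in ileum, 12.1% and 9.41% in jejunum, and 3.5% and 4.66% in colon. Btg1 had 987.4 and 1033.3 CPM in APAP thymuses and 299.9 to 476.7 CPM in Sucrose and Untreated thymuses (log2 1.23 ± 0.10, edgeR adjusted p = 1.15e-16), without overlap. It rose by log2 0.95 in ileum, 1.79 in jejunum and 0.83 in colon, and these calls held without any single library. Cdkn1a, which the tumour suppressor p53 switches on, had 302.3 and 295.1 CPM in APAP jejunums, against 20.4 to 78.3 CPM (log2 2.96 ± 0.58, edgeR adjusted p = 0.00151), and rose by 1.22 in thymus, 1.60 in ileum and 0.96 in colon. The ileum call did not hold without each library.

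Under cisplatin 2 of 13 were higher and 9 lower in thymus, where 22.8% of all genes were higher and 21.1% lower. Cdkn1a had 225.8 and 155.8 CPM in cisplatin thymuses, against 50.9 and 52.3 CPM in CMCTween thymuses (log2 1.77 ± 0.22, edgeR adjusted p = 4.97e-10), whereas Btg2 fell by log2 -1.60 and E2f7, a repressor of replication genes, by -2.93. In kidney 5 of the 12 tested genes rose (11.3% of all genes), Cdkn1a to 2075.6 and 1309.5 CPM, against 18.8 and 30.1 CPM (log2 6.03 ± 0.30, edgeR adjusted p = 6.76e-13). In colon Cdkn1a had 1189.6 and 1184.6 CPM, against 361.1 and 492.0 CPM (log2 1.42 ± 0.13, edgeR adjusted p = 4.34e-11), and Btg2 rose by log2 1.0, beside the 7 members that rose there. In ileum, where 33 members fell, Cdkn1a had 388.2 and 448.9 CPM, against 264.1 and 117.6 CPM (log2 1.05 ± 0.41), without a call.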
